A study of Mus musculus with 6 samples.

Results

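The genes described here are 6 developmental regulators, Otx2, Barhl1, Mab21l2, Pbx3, Ebf3 and Bcl11a, whose RNA was higher in mouse brainstem gliomas that carried the histone mutation H3.3K27M. They were taken by gene name from a deposited table of 223 genes, and all 6 are in it. The table holds the genes that the authors' test called different between 3 H3.3K27M tumours and 3 H3.3WT tumours. The members were chosen by these same measured values, as regulators with a higher mean over the H3.3K27M tumours than over the H3.3WT tumours, so the group differences below are a description and no test of them is given.

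RNA was sequenced from tumours that grew in the brainstem of C57BL/6 mice with the Nestin tv-a transgene and a floxed p53 gene. Nestin tv-a places an avian virus receptor on cells in which the nestin promoter is active, chiefly neural progenitors. The H3.3K27M tumours combined the glioma-driving growth factor PDGF-B with loss of p53 and with histone H3.3 with methionine in place of lysine at the site that Polycomb repressive complex PRC2 methylates. The H3.3WT tumours were made with PDGF-B and p53 loss, without the mutant histone, and whether they received a wild-type H3.3 is not stated. Neither the age nor the sex of the mice is given in the labels. The design text calls the tumours independent. The numbers that open the tumour titles start with 12 in every H3.3K27M tumour and with 11 in every H3.3WT tumour, so whatever these mark cannot be told apart from the mutation.

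Patterning factors divide the early neural tube into regions and then help to set the identity of the neurons born in each. Many of their genes are silenced by Polycomb proteins in cells that do not use them, and in mammals PRC2 is found mainly at unmethylated stretches rich in CpG dinucleotides. H3.3K27M lowers the methylation that PRC2 deposits across much of the genome. Otx2 is a homeobox factor that shapes forebrain and midbrain. Its limit of expression helps place the boundary to the hindbrain, and the gene is also active in choroid plexus, retina and pineal gland. Barhl1 is a Bar-class homeobox factor of cerebellar granule cell precursors, midbrain and other neurons. Pbx3 is a TALE homeobox factor that binds DNA together with Hox and Meis proteins. Ebf3 is a helix-loop-helix factor of neuronal differentiation and migration. Bcl11a is a zinc finger factor of cortical and other projection neurons, best known for silencing fetal globin genes in blood. Mab21l2, a homologue of the worm gene mab-21, is required for eye development and is expressed in the midbrain, and its product has a nucleotidyltransferase-like fold.

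Promoter windows are shown for 3 members to let their CpG content be compared, since it differs between their most upstream windows. Each runs from 250 bases before to 50 bases after a RefSeq transcription start in GRCm38.p6 and is written on the gene's own strand, with each CG dinucleotide in capitals. Ebf3 lies at chr7:137314396-137314695 (minus strand), Mab21l2 at chr3:86548234-86548533 (minus strand) and the most upstream Otx2 window at chr14:48667595-48667894 (minus strand).
Ebf3: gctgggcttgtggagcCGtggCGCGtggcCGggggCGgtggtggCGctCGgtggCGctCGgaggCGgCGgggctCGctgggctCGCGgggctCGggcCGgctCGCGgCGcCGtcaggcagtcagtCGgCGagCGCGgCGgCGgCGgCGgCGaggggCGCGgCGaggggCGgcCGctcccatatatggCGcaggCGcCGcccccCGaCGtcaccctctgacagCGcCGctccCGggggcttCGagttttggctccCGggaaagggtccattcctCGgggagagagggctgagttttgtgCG
Mab21l2: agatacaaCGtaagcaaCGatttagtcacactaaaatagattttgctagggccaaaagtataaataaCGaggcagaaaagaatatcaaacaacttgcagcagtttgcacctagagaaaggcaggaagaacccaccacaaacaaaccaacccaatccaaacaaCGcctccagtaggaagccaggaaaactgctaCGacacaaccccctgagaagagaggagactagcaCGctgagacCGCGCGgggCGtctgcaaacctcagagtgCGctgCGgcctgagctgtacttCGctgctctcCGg
Otx2: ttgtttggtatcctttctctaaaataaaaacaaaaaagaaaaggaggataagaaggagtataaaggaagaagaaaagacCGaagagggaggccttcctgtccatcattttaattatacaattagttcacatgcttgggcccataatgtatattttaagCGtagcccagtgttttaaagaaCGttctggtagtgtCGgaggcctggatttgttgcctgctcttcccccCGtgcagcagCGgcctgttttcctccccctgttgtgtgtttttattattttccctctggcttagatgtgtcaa

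RefSeq windows were matched by symbol for 5 of the 6 members, Pbx3 being the exception, and the submitters' notes name an older build, mm9, for the reads. The Ebf3 window holds 46 CpGs, more than 98.4% of 27025 genes have in their most upstream window. Bcl11a has 23 CpGs, Mab21l2 14, Barhl1 9 and Otx2 6 in that window, against a median of 7 over all genes. The Otx2 window has fewer CpGs than the Ebf3 window and about as many as a typical gene. Further start sites change the count, with 8, 16 and 11 CpGs in the other 3 Otx2 windows and 14 in the other Barhl1 window. By the usual definition, a CpG island over this length has at least 50% G and C and an observed-to-expected CpG ratio of at least 0.6. The most upstream windows of Ebf3 and Bcl11a qualify, 2 of 5 members, against 34.1% of all genes. Of the further windows, the Otx2 window with 16 CpGs and the Barhl1 window with 14 also qualify. The Mab21l2 window misses on G and C alone, at 49.7%, with a ratio of 0.761. Windows matched only 150 of the 223 table genes, too few for a comparison of the members with their own table, so nothing is called particular to the members here. The difference in promoter CpG content is seen in the plot of CpG counts.

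**Figure D1:**
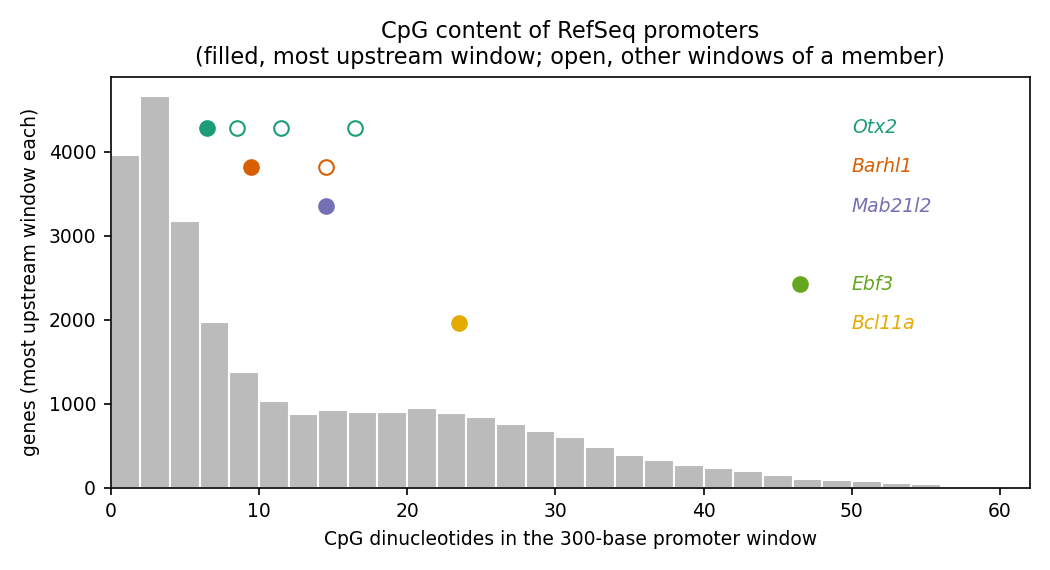
Grey bars count genes by the number of CpG dinucleotides in the most upstream RefSeq promoter window of 300 bases; coloured points mark the members, filled for the most upstream window and open for other start sites. Ebf3, at 46 CpGs, stands in the far right of the distribution, while Otx2, at 6, stands near the median of 7.

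The homeodomain of Otx2 and its relatives binds the letters TAATCC. On either strand this motif is in 2 of the 9 member windows, 1 of Otx2 and 1 of Barhl1, and in 7.06% of all 32851 windows. Several of the 9 windows belong to the same gene. In the most upstream windows alone, the motif is in 0 of 5 members, against 7.15% of all genes, so no enrichment is read from it. Both matches lie at downstream start sites and read GGATTA on the gene's strand, and they are shown with the match in capitals because they sit in promoters of 2 of the homeobox members. The Otx2 stretch is chr14:48665298-48665337 and the Barhl1 stretch chr2:28912526-28912565, both GRCm38.p6, minus strand.
Otx2: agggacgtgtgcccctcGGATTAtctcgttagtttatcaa
Barhl1: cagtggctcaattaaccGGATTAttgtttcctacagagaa

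Depth bears on the lowest of these genes. The listed genes summed to between 252049 and 267812 normalized counts in H3.3K27M tumours and between 232119 and 239040 in H3.3WT tumours, and the full depth of the libraries is unknown. Every value is a whole multiple of 1 step per tumour, as reads divided by a library's size factor would be, and the reads given below rest on taking each step as 1 read. Pdgfb, Trp53 and the H3.3 genes H3f3a and H3f3b have no value here, so the genotypes could not be checked at them.

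All 6 members are listed as higher in H3.3K27M tumours, in a table that calls 1.11% of 16365 gene tests higher. None had overlapping groups, as held for 99.6% of the listed genes, and each was at least 2-fold higher, as 59.6% of the listed genes were. Their median fold in the authors' deposited table was 7.64, beside 2.99 over the 182 higher genes and 2.48 over all 223. Because the choice of members used this contrast, nothing is read from these counts. In bulk tumour RNA, more cells of a type and more RNA per cell cannot be told apart.

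Otx2 (ENSMUSG00000021848, chromosome 14) had 239, 153 and 226 normalized counts in H3.3K27M replicates 1, 2 and 3. In H3.3WT replicates 1, 2 and 3 it had 28.2, 48.8 and 0. The lowest H3.3K27M tumour was 3.13 times the highest H3.3WT tumour, while the H3.3WT tumours differed widely among themselves. The mean was 206 ± 46.2 in H3.3K27M tumours and 25.7 ± 24.5 in H3.3WT tumours (SD, n = 3 each). The ratio of these means was 8.01, and the authors' deposited table gives it an adjusted p of 3.31e-09, the value that placed the gene in the table. The ratio depends on which H3.3WT tumours are used: it was 14.6 without replicate 2 of that group and 5.34 without replicate 3, whose count of 0 allows up to 3.27 normalized counts (3 reads, counting error only). The opposite-strand transcript Otx2os1 shares 154 of the 4221 exon bases of Otx2 in GENCODE M21. The same-strand transcript Gm49154 shares 168 exon bases with Otx2. As use of strand is not stated, reads there cannot be told apart, and for Gm49154 strand would not separate them.

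Barhl1 (ENSMUSG00000026805, chromosome 2) had 51.9, 28.9 and 66.5 normalized counts in H3.3K27M replicates 1, 2 and 3. In H3.3WT replicates 1, 2 and 3 it had 8.05, 6.83 and 1.09, which correspond to 8, 7 and 1 reads. The groups were apart, with the lowest H3.3K27M tumour 3.59 times the highest H3.3WT tumour. The mean was 49.1 ± 18.9 against 5.32 ± 3.72 in H3.3WT tumours (SD, n = 3 each), a 9.22-fold ratio with an adjusted p of 0.00921 in the authors' deposited table. Pooled over libraries, 152 against 16 reads give, after scaling by the implied size factors, a 9.09-fold ratio with an exact 95% binomial interval of 5.42 to 16.3 for counting error only. None of the 50-base stretches of its transcripts occurs in transcripts of another gene in GENCODE M21.

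Mab21l2 (ENSMUSG00000057777, chromosome 3) had the steepest ratio of the members. It had 90.5, 200.4 and 124 normalized counts in H3.3K27M replicates 1, 2 and 3, against 9.06, 7.81 and 2.18 in H3.3WT replicates 1, 2 and 3. Every H3.3K27M tumour was thus well above every H3.3WT tumour, by at least 9.99 times. The mean was 138 ± 56.3 in H3.3K27M tumours and 6.35 ± 3.66 in H3.3WT tumours (SD, n = 3 each), a 21.8-fold ratio with an adjusted p of 2.27e-05 in the authors' deposited table. This ratio ranked 7th among the 182 higher genes. Pooled over libraries, 419 against 19 reads give a ratio of 21.1 after scaling by the implied size factors, with a counting interval of 13.3 to 35.4. The gene lies within Lrba, which encodes a vesicle trafficking protein, on the opposite strand. The exons of both share 1097 of the 3049 exon bases of Mab21l2, and 33.3% of its 50-base stretches also occur in Lrba transcripts, so its level is uncertain where strand was not used. Lrba itself has no value here.

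Pbx3 (ENSMUSG00000038718, chromosome 2) had the smallest ratio of the members. It had 806, 636 and 516 normalized counts in H3.3K27M replicates 1, 2 and 3, against 199, 231 and 280.3 in H3.3WT replicates 1, 2 and 3. The tumours of each group lay close together, with a coefficient of variation of 22.4% in H3.3K27M tumours and 17.2% in H3.3WT tumours. The mean was 653 ± 146 in H3.3K27M tumours and 237 ± 40.8 in H3.3WT tumours (SD, n = 3 each), a 2.75-fold ratio with an adjusted p of 2.30e-04 in the authors' deposited table. With any 1 tumour left out, the ratio stayed between 2.43 and 3.04.

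Ebf3 (ENSMUSG00000010476, chromosome 7) lay nearest to the table's threshold, with an adjusted p of 0.0392 in the authors' deposited table, whose largest is 0.0495. It had 116, 123 and 57.8 normalized counts in H3.3K27M replicates 1, 2 and 3, against 15.1, 44.9 and 8.73 in H3.3WT replicates 1, 2 and 3. H3.3K27M replicate 3 was low and H3.3WT replicate 2 high, and these 2 tumours differed by 1.29 times only. The mean was 98.9 ± 35.7 in H3.3K27M tumours and 22.9 ± 19.3 in H3.3WT tumours (SD, n = 3 each), a ratio of 4.32 that became 8.30 without H3.3WT replicate 2. Opposite-strand transcript Gm45278 shares 355 of its 9227 exon bases.

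Bcl11a (ENSMUSG00000000861, chromosome 11) had 207, 119.8 and 159 normalized counts in H3.3K27M replicates 1, 2 and 3, against 19.1, 31.2 and 16.4 in H3.3WT replicates 1, 2 and 3. The groups were clearly apart, with the lowest H3.3K27M tumour 3.84 times the highest H3.3WT tumour. The mean was 162 ± 43.9 in H3.3K27M tumours and 22.2 ± 7.91 in H3.3WT tumours (SD, n = 3 each), a 7.29-fold ratio with an adjusted p of 2.11e-07 in the authors' deposited table. Leaving out any 1 tumour kept the ratio between 6.27 and 9.14. The opposite-strand transcript 4930538E20Rik shares 316 of the 13175 exon bases of Bcl11a.

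**Figure D2:**
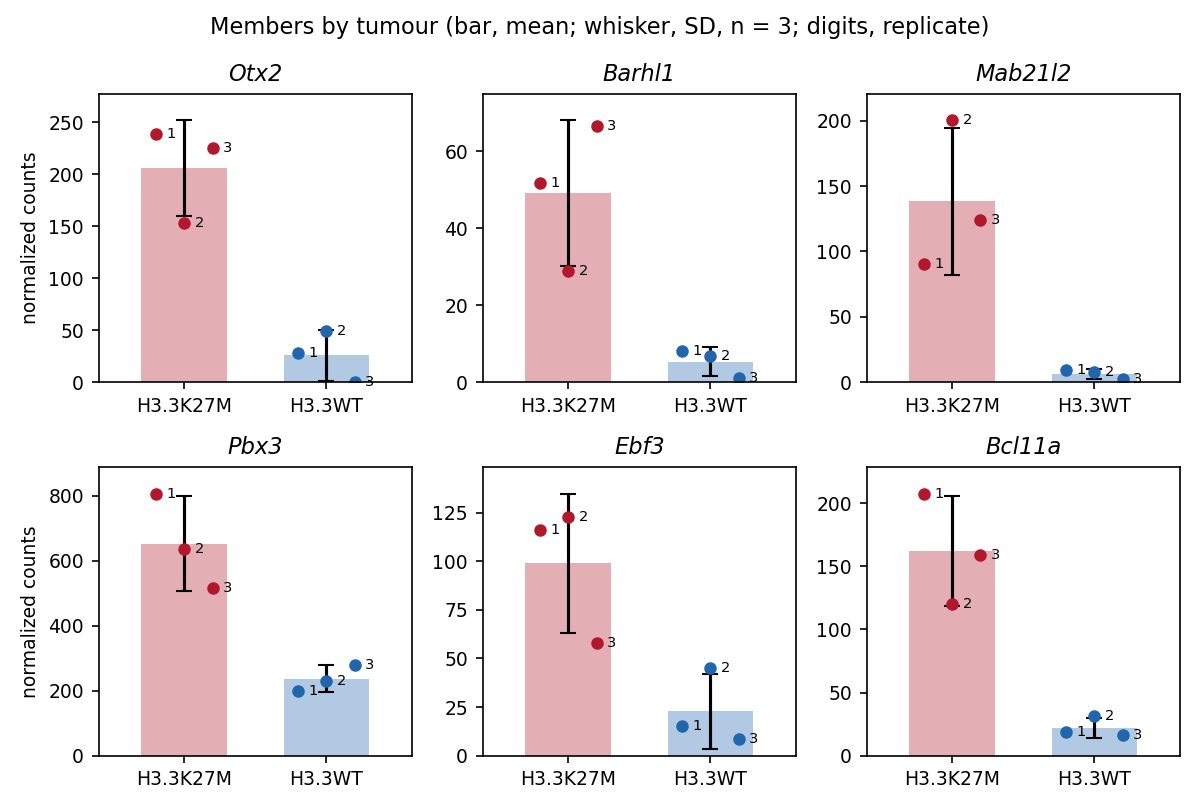
Normalized counts of the 6 members in each tumour, on linear axes, with H3.3K27M tumours on the left of each panel and H3.3WT tumours on the right; bars are means, whiskers SD (n = 3), and digits name the replicate. In every panel the 3 H3.3K27M points lie above the 3 H3.3WT points, with the narrowest gap for Ebf3, at 57.8 against 44.9 normalized counts.

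**Figure D3:**
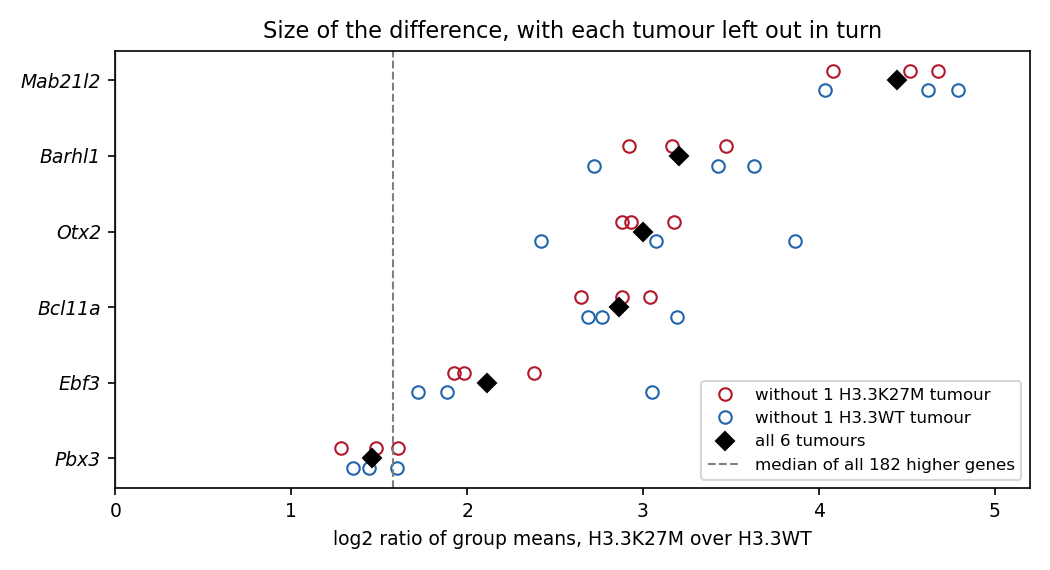
The log2 ratio of group means (H3.3K27M over H3.3WT) of each member with all 6 tumours (diamonds) and with 1 tumour left out (open circles); the dashed line is the median of all 182 higher genes, 1.58. Mab21l2 lies between 4.04 and 4.79 whichever tumour is left out, while Otx2 runs from 2.42 to 3.87 and Ebf3 from 1.72 to 3.05, both widest when an H3.3WT tumour is left out.

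Normalized counts grow with transcript length, so levels of different members were set side by side per kilobase of annotated exon (GENCODE M21, all isoforms merged). On this scale Pbx3 was highest in H3.3K27M tumours, at 107 ± 23.9 normalized counts per kilobase, and also in H3.3WT tumours, at 38.8 ± 6.68. In H3.3K27M tumours Otx2 followed at 48.7 ± 10.9 and Mab21l2 at 45.4 ± 18.5, whose ranges overlapped. Barhl1 at 12.6 ± 4.85, Bcl11a at 12.3 ± 3.33 and Ebf3 at 10.7 ± 3.87 formed the lower end of the H3.3K27M order and overlapped one another. In H3.3WT tumours the 5 members below Pbx3 lay between 1.36 ± 0.952 for Barhl1 and 6.08 ± 5.80 for Otx2, and their spreads overlapped (SD, n = 3 throughout). Mab21l2 thus stood beside Otx2 in H3.3K27M tumours, and at 2.08 ± 1.20 beside Ebf3, at 2.48 ± 2.09, in H3.3WT tumours.

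The order of tumours within a group is described next. The authors' test weighed the spread within groups when it placed genes in the table, but not which tumour was high or low. H3.3WT replicate 3 was the lowest of its group for 5 of the 6 members, while 44.5% of the 182 higher genes had their lowest H3.3WT value there. The exception was Pbx3, which was highest in that tumour. On the log2(normalized count + 1) scale, H3.3WT replicate 3 deviated from its group's mean by -3.50 for Otx2, -1.34 for Barhl1 and -1.04 for Mab21l2. The deviation was -0.99 for Ebf3 and -0.37 for Bcl11a, against 0.26 for Pbx3. Taking 1 step as 1 read, Otx2, Barhl1 and Mab21l2 had only 0, 1 and 2 reads in that tumour. The sizes of their deviations thus rest largely on the 1 added to each count. Within the H3.3K27M group the members did not share an order. Replicate 2 was lowest for Otx2, Barhl1 and Bcl11a, 3 of 6, where 67.0% of the 182 higher genes were lowest, but it was highest for Mab21l2 and Ebf3. Pbx3 and Ebf3 were lowest in replicate 3, and Mab21l2 was lowest in replicate 1.

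**Figure D4:**
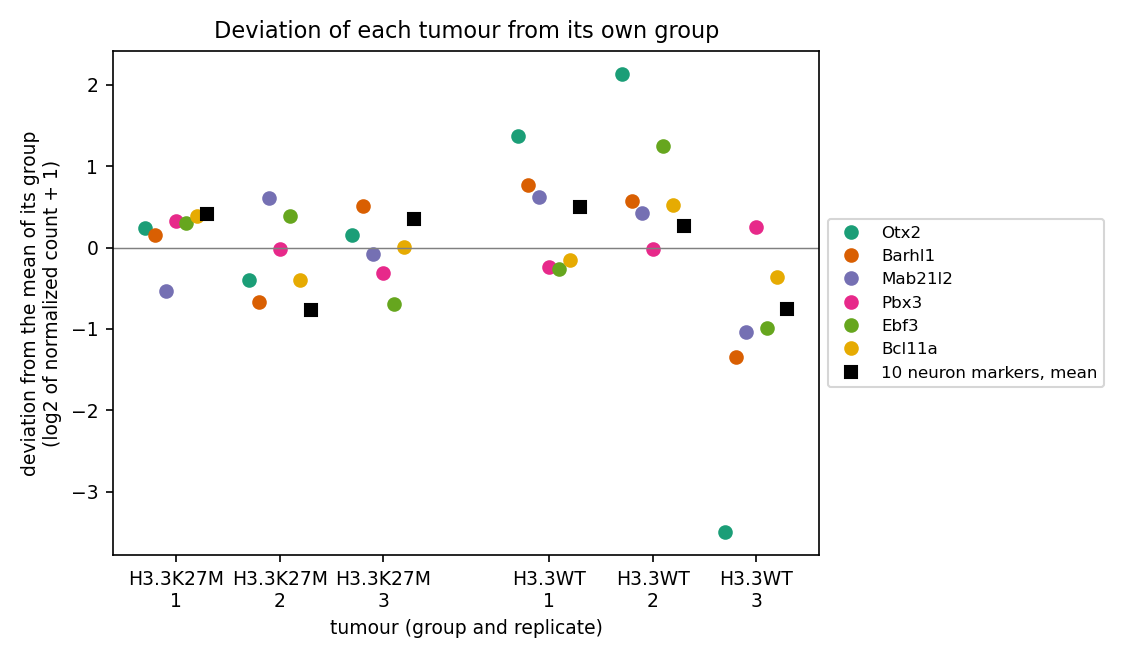
Deviation of each tumour from the mean of its own group, on the log2(normalized count + 1) scale, for the 6 members (circles) and for the mean of the 10 listed neuron markers (black squares). In H3.3WT replicate 3 the neuron marker mean stands at -0.76 and every member but Pbx3 is below 0; in H3.3K27M replicate 2 the neuron marker mean stands at -0.77 with Mab21l2 and Ebf3 above 0.

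Some neuron markers are in the table as well, where every gene differs between the groups by selection. Of 32 neuron markers, 10 are listed, all higher in H3.3K27M tumours, where 1.11% of all gene tests are. The rest have no value here. The 10 listed markers had a median log2 fold of 2.67 in the authors' deposited table. Their summed level was 15719, 8036 and 16337 normalized counts in H3.3K27M replicates 1, 2 and 3, against 4911, 3823 and 2370 in H3.3WT replicates 1, 2 and 3, and none of the 10 was at 0 in any tumour. Within groups, the markers were lowest in H3.3K27M replicate 2 (9 of 10 genes) and in H3.3WT replicate 3 (10 of 10). Otx2, Barhl1 and Bcl11a were lowest in the same 2 tumours. Mab21l2 and Ebf3 were lowest in H3.3WT replicate 3 but highest in the H3.3K27M tumour with the fewest neuron marker counts, and Pbx3 was highest in H3.3WT replicate 3. The part of neurons in the members' levels was not tested.

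Markers of other cell types, some of which are known to use a member, gave a mixed picture. None of 19 choroid plexus markers, 15 cerebellar neuron markers, 12 retina and pineal markers or 10 ependymal markers is listed, so these have no value here, and their part was not tested. Of 12 astrocyte markers, Aqp4, a water channel, and Aldh1l1, a folate enzyme, are listed as higher and summed to 698 to 1130 normalized counts in H3.3K27M tumours and 261 to 416 in H3.3WT tumours. Of 11 meningeal, mural and fibroblast markers, the matrix genes Lum, Dcn and Lox are listed as higher, with sums of 1116 to 1764 in H3.3K27M tumours and 280 to 556 in H3.3WT tumours. Of 10 genes taken as oligodendrocyte precursor markers, Bcas1 and Dll3 are listed as lower. Their sums were 9227 to 12043 in H3.3K27M tumours and 14923 to 16568 in H3.3WT tumours. Bcas1 made up most of each sum, so the sums speak for that gene. Its mean was 9925 ± 1333 in H3.3K27M and 15092 ± 858 in H3.3WT tumours (SD, n = 3 each). Dll3 averaged 563 ± 97.7 and 901 ± 111 in the same order. Of 10 myelinating oligodendrocyte markers, Ermn, a cytoskeletal protein of myelin, is listed as higher, with 217, 80.6 and 168 normalized counts in H3.3K27M replicates 1, 2 and 3, against 27.2, 31.2 and 18.5 in H3.3WT replicates 1, 2 and 3. It was lowest in the same tumours as Otx2, Barhl1 and Bcl11a. None of these listed markers was at 0 in any tumour, and their part in the members' levels was not tested.

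Close relatives of the members and neighbouring patterning factors were looked up in the table, which lists 1.36% of all gene tests. None of 14 paralogues and family members, among them Otx1, Barhl2, Ebf1, Ebf2, Bcl11b and Mab21l1, is in the table. At that share, a list of 14 genes could well hold none. Across 5 lists of patterning, rhombic lip, Hox and telencephalic factors and paralogues, which hold 135 genes in all, 5 are listed. This is a larger share than the 1.36% of all gene tests. Of these 5 genes, 1 is higher and 4 are lower, where 1.11% and 0.251% of all gene tests are. The lists were chosen with earlier results known, so nothing is read from these shares. The higher gene was Foxp1, a forkhead factor of striatal and motor neurons, at 392 ± 54.1 in H3.3K27M tumours and 215 ± 30.8 in H3.3WT tumours (SD, n = 3 each), a 1.82-fold ratio with an adjusted p of 0.0348 in the authors' deposited table. The lower genes were Lhx2, a LIM homeobox factor, at 55.7 ± 34.6 in H3.3K27M tumours and 303 ± 69.8 in H3.3WT tumours, and Hoxa4, Hoxa5 and Hoxa7. These 3 genes of the HoxA cluster were thus listed in the direction opposite to Pbx3. Of 49 Hox genes and TALE cofactors, a list without Pbx3, only they (6.12%) have a value here. Other Hox genes that Pbx proteins may partner with therefore cannot be compared. The sum over the 3 was 0, 0 and 3.86 normalized counts in H3.3K27M replicates 1, 2 and 3. In H3.3WT replicates 1, 2 and 3 it was 114, 255 and 605. Absence from the table says only that a gene did not pass the threshold or was not tested.

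For each member, the 2 other listed genes with the most similar within-group deviations over the 6 tumours were found by Euclidean distance on the log2(normalized count + 1) scale. For Otx2 these were Cck, the neuropeptide cholecystokinin, at a distance of 0.88, and Slc6a7, a proline transporter of excitatory synapses, at 1.84. Both, like Otx2, were at 0 in H3.3WT replicate 3. For Barhl1 they were Dnajc6, the neuronal clathrin uncoating cofactor auxilin, at 0.39, and Gpr22, an orphan receptor, at 0.46. For Pbx3 they were Odz4, a teneurin, at 0.28, and Dach1, a retinal determination factor, at 0.30. Bcl11a was nearest to Gpx8, an endoplasmic reticulum peroxidase, at 0.34 and to Eps15, an endocytic adaptor, at 0.46. For Mab21l2 they were AW551984 at 1.07 and Ankrd45 at 1.08, and for Ebf3 Cdkl2 at 1.10 and AW551984 at 1.27. Distances grow with how far a member itself deviates, so they are not compared between members. The distance of a member to no deviation was 4.35 for Otx2, 1.85 for Barhl1 and 1.52 for Mab21l2. It was 0.57 for Pbx3, 1.82 for Ebf3 and 0.86 for Bcl11a. The other members were left out of this search, so it says nothing of how near the members lie to one another. With a pseudocount of 10 in place of 1, 4 of these 12 choices remained.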

How the data were processed

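One deposited table was used, made by the authors from RNA sequencing of 6 brainstem gliomas, 3 per group by their titles, with replicates numbered in the order of the samples. Per the submitters' processing notes DESeq was applied and the builds mm9 and NCBIM37 were used. The aligner, the counter and the use of strand are not stated there. The authors deposited for each gene a normalized count signal per tumour, group means, a fold change (ratio of means) with its log2, and p-values before and after adjustment. The Benjamini-Hochberg formula returned every deposited adjusted p with 16365 tests, so the table holds the genes under 0.05. There were 0 unmatched columns of tumour values. In each tumour 100% of the values were whole multiples of 1 step within 0.01 of a whole number. The size factors implied by 1 read per step lay between 0.917 and 1.06. The count test planned as an alternative, edgeR, was not run, a departure from the fixed design. Reads and their intervals are given only on the assumption that 1 step is 1 read.

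Means, SDs and ratios were computed from the normalized counts with Python 3.11.15. limma 3.58.1 (R 4.3.3) on log2(normalized count + 1) served only as an alternative count of calls over the 223 listed genes and was tested on simulated data. Gene annotation came from GENCODE M21 (GRCm38) by gene ID and promoters from RefSeq (GRCm38.p6) by symbol. The members and gene lists were chosen with earlier results of these data known. The genes named with values are the members, list genes in the table and the 2 nearest genes of each member. The regulators under the other observations were added after their values were seen. Each printed p-value is the authors' deposited adjusted p for the difference between the groups. Its units are the tumours, which the design text calls independent.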

Additional observations from a re-analysis of the deposited data

How the results depend on the processing

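The members were chosen as higher and their groups do not overlap, so the direction could not turn when a tumour was left out and says nothing of stability; the sizes are given. Averaging log2(value + 1) gave Otx2 a 17.9-fold difference against 8.01-fold for the ratio of means, and medians gave Ebf3 7.68-fold against 4.32-fold. With a pseudocount of 10, which shrinks low genes, the log2 difference was 1.92 for Barhl1, 3.14 for Mab21l2 and 2.41 for Bcl11a, against 3.20, 4.45 and 2.87. Rescaling to equal sums over the table moved the median log2 ratio of higher genes by -0.14. As 182 of the 223 listed genes were selected as higher, these sums carry part of the group difference. The move is therefore no check of the normalization. Leaving out 1 tumour at a time gave log2 ratios of 2.42 to 3.87 for Otx2, 2.72 to 3.63 for Barhl1, 4.04 to 4.79 for Mab21l2, 1.28 to 1.61 for Pbx3, 1.72 to 3.05 for Ebf3 and 2.65 to 3.19 for Bcl11a.

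For the nearest genes, a pseudocount of 10 kept 4 of 12 choices and a minimum mean of 50 kept 11. The authors' table holds 223 genes; limma called 223 of them, 204 with a minimum mean of 50, and 193 to 220 with 1 tumour left out. As these genes had been selected on the same tumours, the limma counts are no check of the calls. The planned edgeR fit was not run, and it too would have rested on genes already selected. On the assumption that 1 step is 1 read, unscaled reads gave ratios of 2.90-fold for Pbx3 to 22.1-fold for Mab21l2. No paired analysis was possible because the labels give the tumours no shared replicate numbers. The depth limits Barhl1 and Mab21l2 most, with 16 and 19 reads over the H3.3WT libraries.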

Other observations

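A few other regulators that were higher in H3.3K27M tumours were named after their values were seen, so no theme is read from them. Picked for being higher, they say nothing of regulators at large. On the factor lists, which do not hold them, 1 listed gene is higher and 4 are lower. Eya4, a phosphatase and transcriptional coactivator of the retinal determination network, averaged 95.9 ± 20.5 in H3.3K27M tumours and 18.6 ± 9.17 in H3.3WT tumours (normalized counts, SD, n = 3 each), 5.15-fold in the authors' deposited table. Dach1, a partner of the same network, was at 239 ± 22.8 in H3.3K27M tumours and 98.4 ± 13.6 in H3.3WT tumours, 2.43-fold in the authors' deposited table. Zfhx4, a zinc finger homeobox factor, was at 129 ± 70.6 in H3.3K27M tumours and 12.5 ± 2.92 in H3.3WT tumours, 10.3-fold in the authors' deposited table. Scrt1, a Snail-family repressor of postmitotic neurons, was at 622 ± 125 in H3.3K27M tumours and 251 ± 78.2 in H3.3WT tumours. Rfx3, a factor of cilium genes, was at 194 ± 13.2 in H3.3K27M tumours and 87.9 ± 25.5 in H3.3WT tumours.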
